A study of Homo sapiens with 27 samples.

Results

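The trefoil factors TFF1, TFF2 and TFF3 and the anterior gradient proteins AGR2 and AGR3 were followed as RNA in hormone-deprived and long-term estrogen-deprived (LTED) lobular breast cancer cells. The 5 genes were chosen by name, out of 60619 genes with deposited counts, with their levels in these groups already known, so their levels and fold changes are given as a description without a test. MM134 (MDA-MB-134VI) and SUM44 are cell lines of human invasive lobular carcinoma that express the estrogen receptor. RNA-Seq libraries came from 27 wells in 9 groups of 3: the parental cells and the LTED variants A, B, D and E of MM134, and SUM44F, the LTED variants A and B, and SUM44PE of SUM44. LTED variants had grown for months in medium with charcoal-stripped serum, which is poor in steroid hormones, until clones came up, and each variant is a culture of its own. The parental cells had been deprived of hormone for 3 days, so acute and long-term deprivation are compared. Before that, MM134 parental and SUM44F cells had been kept in medium with serum that was not charcoal-stripped. No library was collected from cells that had not been deprived of hormone. SUM44F cells are SUM44PE cells kept in another medium and are the parental cells of the SUM44 variants, whereas SUM44PE is the original culture and is also labelled parental. The 3 wells of a group shared 1 culture, so the spread between them may be technical and does not cover other derivations of these lines.

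Trefoil factors are small secreted proteins, held together by disulfide bonds, that mucus-producing epithelia release together with mucins and that take part in the repair of mucosal surfaces. TFF1, first described as pS2, is a classic estrogen-induced gene of breast cancer cells, and TFF3 is likewise expressed in many estrogen receptor-positive tumors, whereas TFF2 is mainly a gastric peptide. AGR2 and AGR3 are members of the protein disulfide isomerase family. AGR2 acts in the endoplasmic reticulum of secretory cells, where it is needed for the making of mucin, and both AGR genes are known as markers of estrogen receptor-positive breast cancer.

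The 5 genes lie in 2 clusters, all on the minus strand (GENCODE v44, hg38). On chromosome 21, TFF3 (ENSG00000160180) covers chr21:42311667-42315409, TFF2 (ENSG00000160181) chr21:42346357-42350997 and TFF1 (ENSG00000160182) chr21:42362282-42366535, with 30947 bp between TFF3 and TFF2 and 11284 bp between TFF2 and TFF1. On chromosome 7, AGR2 (ENSG00000106541) covers chr7:16791811-16833433 and AGR3 (ENSG00000173467) chr7:16859412-16881987, with 25978 bp between them. The exons of the genes add up to 922 bases for TFF3, 699 for TFF2, 492 for TFF1, 2764 for AGR2 and 1153 for AGR3, so a count stands for a different amount of RNA in each gene. No other gene overlaps the members but RAD17P1, a processed pseudogene on the same strand inside AGR3 with at most 122 counts in a library.

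RefSeq promoter sequences (GRCh38.p14) matched 2 of the 5 members, AGR2 and AGR3, and those of TFF1, TFF2 and TFF3 were not analysed here. Because both AGR genes were higher in MM134 LTED cells, while in SUM44 LTED cells AGR2 was higher and AGR3 lower, the 250 bases before the start of each are shown, read along the minus strand. They lie at chr7:16805000-16805249 for AGR2 and at chr7:16881984-16882233 for AGR3. The AGR2 start used by RefSeq lies inside the longer span that GENCODE gives the gene. Capitals mark matches to GGTCA (a short element bound by the estrogen receptor and other nuclear receptors), TATAAA (the TATA box) and TGTTTAC (a forkhead motif), searched on both strands, and no matches overlapped.
AGR2: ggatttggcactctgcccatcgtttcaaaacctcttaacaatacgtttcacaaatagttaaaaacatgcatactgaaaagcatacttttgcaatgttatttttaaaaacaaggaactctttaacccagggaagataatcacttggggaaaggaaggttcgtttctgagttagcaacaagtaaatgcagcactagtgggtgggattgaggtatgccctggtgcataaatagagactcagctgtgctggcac
AGR3: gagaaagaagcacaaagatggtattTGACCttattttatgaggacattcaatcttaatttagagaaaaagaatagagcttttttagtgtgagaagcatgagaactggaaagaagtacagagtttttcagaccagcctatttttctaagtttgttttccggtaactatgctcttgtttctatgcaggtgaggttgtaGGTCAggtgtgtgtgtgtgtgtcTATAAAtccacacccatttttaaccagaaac
None of these motifs was found in the AGR2 window. The AGR3 window held GGTCA on its own strand at position -54 from the start, the same motif on the other strand (TGACC) at -225, and TATAAA at -31. Of 35116 promoter windows of this length, 32.6% held GGTCA, 10.7% TATAAA and 2.98% TGTTTAC. These matches are descriptions of the letters and not sites of binding.

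Levels are given as CPM (normalized counts scaled to a common library size), with TMM factors for library composition. Fold changes are log2 values from edgeR fits across all genes within a cell line. The fits give no standard error (SE), so it was taken as the absolute log2 fold change divided by the square root of the F statistic. These SE values are approximate and can understate the counting noise of a group with few counts. Library totals ranged from 28583554 to 134882175 counts with a median of 44018412. In SUM44 LTED-A, the counts of replicates 2 and 3 lay closer together than sampling noise allows (chi-square per degree of freedom 0.312, against 2.35 to 58.3 for the other 26 pairs of replicates) and were counted as 1 sample, which leaves n = 2 for this variant and 26 samples in all. All 7 luminal epithelial markers were detected in every group, with a sum of 4314 to 9143 CPM. A total of 3 libraries stood apart from their groups by stromal markers. The farthest was SUM44F replicate 1, whose 8 stromal markers summed to 336 CPM against 33.8 and 40.3 CPM in the other SUM44F libraries. COL3A1, a fibrillar collagen, was at 131 CPM in it against 0.694 and 0.462 CPM, and its 7 immune markers summed to 8.96 CPM against 2.22 and 2.51 CPM. Fold changes against SUM44F are therefore also given without it. To a lesser degree MM134 parental replicate 3 (COL3A1 at 5.49 CPM against 0.113 and 0.0530 CPM, stromal sum 35.6 CPM) and MM134 LTED-D replicate 2 (5.28 CPM against 0.0982 and 0.0237 CPM, sum 30.2 CPM) also stood apart. Leaving out either moved no log2 fold change of TFF1, TFF3 or AGR2 in MM134 by more than 0.11. In MM134, the summed immune markers went from 0.563 to 1.41 CPM in parental cells up to 24.7 CPM in LTED-A, through CD68 and LYZ, while the leukocyte gene PTPRC stayed between 0.0707 and 0.369 CPM in all MM134 libraries and CD3E was at 0 in all but 1 LTED-D library. The part of these markers in the levels of the 5 genes was not tested. In bulk RNA, fewer cells expressing a gene and less RNA per cell cannot be told apart.

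**Figure D1:**
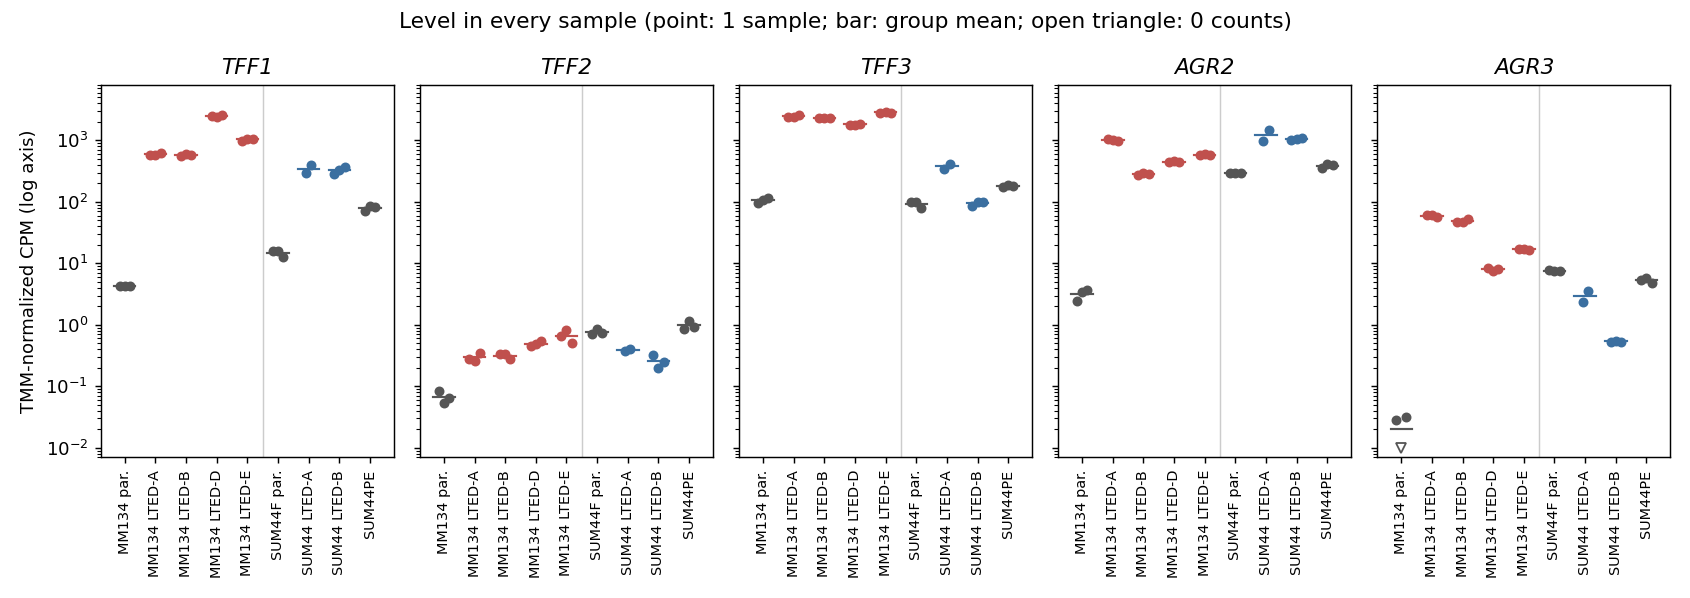
Normalized level of each gene in every sample of the 9 groups, in CPM on a log axis; points are samples, short bars are group means, an open triangle at the bottom marks a sample with 0 counts, gray marks parental groups, red MM134 LTED variants and blue SUM44 LTED variants, with a vertical line between the cell lines. Mean TFF1 is 2468 CPM in MM134 LTED-D against 4.25 CPM in its parental cells, and AGR3 one of 7.60 CPM in SUM44F and 0.540 CPM in SUM44 LTED-B.

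TFF1 was low in both parental lines and was higher in every LTED variant of both. In MM134 parental cells it had 4.25, 4.24 and 4.27 CPM, from 133 to 160 counts. In LTED-A it had 574, 588 and 630 CPM and in LTED-B 548, 595 and 576 CPM. In LTED-D it reached 2467, 2370 and 2566 CPM, and in LTED-E 997, 1062 and 1053 CPM. No LTED library came near the parental ones, and the variants fell into 3 levels, LTED-D above LTED-E above LTED-A and LTED-B, whose libraries overlapped. Against the parental mean of 4.25 ± 0.0145 CPM (SD, n = 3), the log2 fold change was 7.10 ± 0.0577 (SE) in LTED-A, 7.04 ± 0.0577 in LTED-B, 9.15 ± 0.0596 in LTED-D and 7.90 ± 0.0583 in LTED-E, which is 137-, 132-, 568- and 238-fold. Ordered by log2 fold change from the top, TFF1 stood at place 83, 40, 16 and 46 among 26061 genes tested in MM134. In SUM44F, TFF1 had 15.8, 16.2 and 12.6 CPM. In SUM44 LTED-A it had 297 and 397 CPM, and in LTED-B 282, 333 and 363 CPM. The libraries of these 2 variants overlapped each other and lay far above all SUM44F libraries, with log2 fold changes of 4.49 ± 0.14 (22.4-fold) and 4.42 ± 0.135 (21.4-fold), at place 33 of 26834 genes in both. Over the 9 groups, TFF1 was highest in MM134 LTED-D and lowest in MM134 parental cells, and SUM44PE, with 71.6, 87.0 and 83.0 CPM, lay between the LTED variants and SUM44F.

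TFF3 was the trefoil factor with the highest parental level in MM134, and it was higher in all MM134 variants and in SUM44 LTED-A, while the libraries of SUM44 LTED-B overlapped those of SUM44F. MM134 parental cells had 96.5, 107 and 114 CPM. LTED-A had 2442, 2408 and 2629 CPM, and LTED-B had 2348, 2315 and 2347 CPM. LTED-D had 1807, 1808 and 1860 CPM, and LTED-E had 2786, 2930 and 2843 CPM. The order of the variants was thus not that of TFF1, since LTED-D, the highest for TFF1, was the lowest for TFF3, and no neighbours in this order overlapped. Log2 fold changes were 4.52 ± 0.0508 in LTED-A (23.0-fold), 4.43 ± 0.0506 in LTED-B (21.6-fold), 4.08 ± 0.0499 in LTED-D (16.9-fold) and 4.72 ± 0.0512 in LTED-E (26.4-fold). SUM44F had 100.4, 101 and 79.5 CPM of TFF3, close to MM134 parental cells. SUM44 LTED-A had 342 and 412 CPM, all above SUM44F, a log2 fold change of 1.95 ± 0.110 (3.87-fold). SUM44 LTED-B had 86.3, 99.3 and 101 CPM, which overlapped SUM44F, with a log2 fold change of -0.01 ± 0.10. SUM44PE had 172, 187 and 183 CPM, between SUM44 LTED-A and the other SUM44 groups.

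TFF2 was low in all groups, with at most 1.15 CPM in any sample, and was higher in the MM134 variants and lower in the SUM44 variants than in their parental cells. MM134 parental cells had 2 or 3 counts per library (0.0845, 0.0530 and 0.0642 CPM) and were treated as below detection. LTED-A had 0.283, 0.262 and 0.354 CPM, LTED-B 0.330, 0.334 and 0.274 CPM, LTED-D 0.458, 0.483 and 0.546 CPM and LTED-E 0.652, 0.820 and 0.512 CPM. All of these lay above the parental libraries, and set against a floor of 3 counts per library they were at least 3.45-, 3.61-, 5.71- and 7.62-fold higher. SUM44F had 0.699, 0.848 and 0.737 CPM, from 33 to 67 counts. SUM44 LTED-A had 0.382 and 0.408 CPM and LTED-B 0.325, 0.202 and 0.249 CPM, all below SUM44F, with log2 fold changes of -1.0 ± 0.279 (2.0-fold lower) and -1.61 ± 0.265 (3.06-fold lower). SUM44PE, with 0.841, 1.15 and 0.938 CPM, had its lowest library just under the highest of SUM44F.

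AGR2 was all but silent in MM134 parental cells and well expressed in every other group. MM134 parental cells had 2.42, 3.37 and 3.66 CPM, from 86 to 127 counts. LTED-A had 1042, 1013 and 989 CPM, and LTED-B 275, 299 and 286 CPM. LTED-D had 452, 464 and 442 CPM, and LTED-E 581, 595 and 587 CPM. The 4 variants did not overlap each other, with LTED-A highest and LTED-B lowest, and each was far above the parental libraries. Log2 fold changes were 8.30 ± 0.0703 in LTED-A (316-fold), 6.48 ± 0.0699 in LTED-B (89.5-fold), 7.14 ± 0.0698 in LTED-D (141-fold) and 7.52 ± 0.0698 in LTED-E (183-fold), at place 40, 69, 53 and 57 from the top. In SUM44F, AGR2 had 293, 293 and 294 CPM, a level that overlapped that of MM134 LTED-B. SUM44 LTED-A had 974 and 1497 CPM, and LTED-B had 1017, 1040 and 1107 CPM. The samples of LTED-A were the most spread of any group (1235 ± 370.0 CPM, SD, n = 2), yet both lay above all SUM44F libraries. The log2 fold change was 2.0 ± 0.132 for LTED-A (4.01-fold) and 1.80 ± 0.122 for LTED-B (3.49-fold). The SUM44 variants and MM134 LTED-A overlapped at the top of the order over all groups. SUM44PE had 357, 417 and 394 CPM, above SUM44F without overlap but by less than 1.5-fold (log2 fold change 0.44 ± 0.109).

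AGR3, the neighbour and closest relative of AGR2, was below detection in MM134 parental cells, was detected in all MM134 variants, and was lower in both SUM44 variants than in SUM44F. MM134 parental libraries held 1, 0 and 1 counts. LTED-A had 61.4, 60.2 and 56.5 CPM and LTED-B 46.9, 46.7 and 52.3 CPM. LTED-D had 8.31, 7.50 and 8.11 CPM and LTED-E 17.0, 17.3 and 16.4 CPM. Against 3 counts per parental library these levels were at least 684-, 560.4-, 91.9- and 195-fold higher in variants A, B, D and E, and the 4 variants did not overlap. LTED-B, the lowest variant for AGR2, was the second highest for AGR3. SUM44F had 7.77, 7.54 and 7.49 CPM, overlapping MM134 LTED-D. SUM44 LTED-A had 2.37 and 3.60 CPM, and LTED-B had 0.531, 0.555 and 0.533 CPM. Both variants lay below SUM44F without overlap, with log2 fold changes of -1.40 ± 0.159 (2.65-fold lower) and -3.86 ± 0.163 (14.5-fold lower), in the same libraries in which AGR2 was higher. SUM44PE had 5.43, 5.81 and 4.88 CPM, also below SUM44F without overlap, by less than 1.5-fold (log2 fold change -0.47 ± 0.126).

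**Figure D2:**
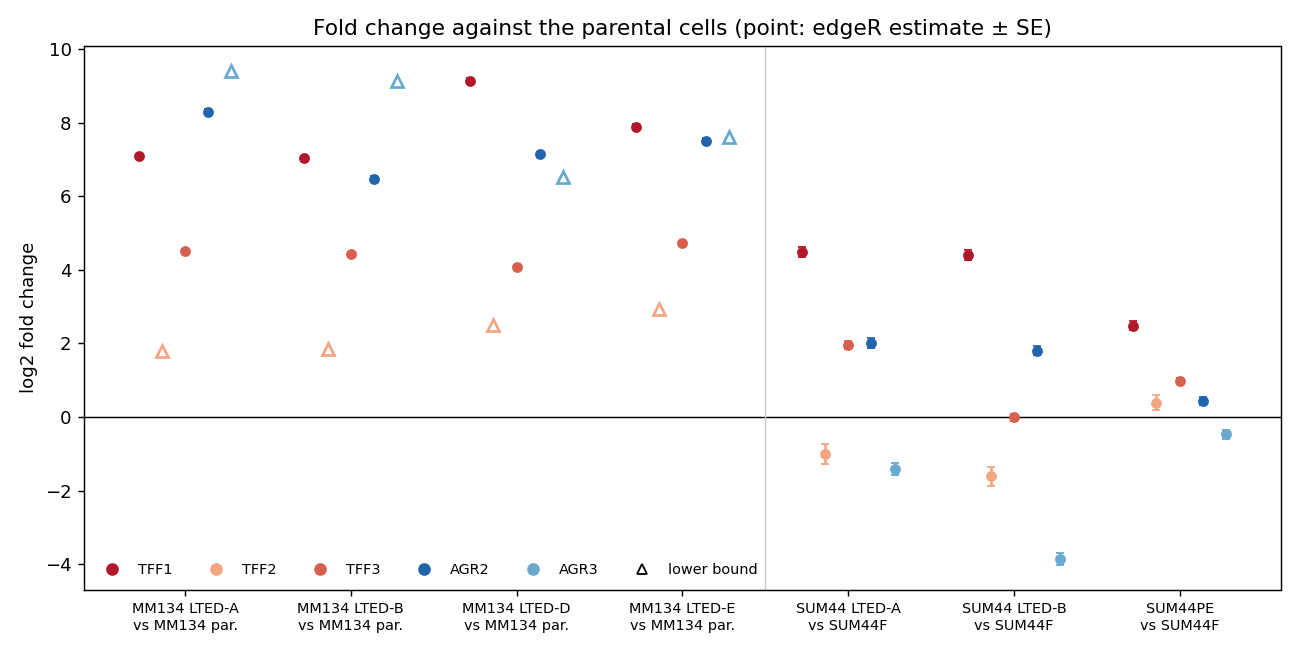
Log2 fold change of each gene in the LTED variants and SUM44PE against the parental cells; points with error bars are edgeR estimates ± SE, and open triangles are lower bounds for genes that were below detection in MM134 parental cells. All MM134 values are above 0, while TFF2 (-1.0 and -1.61) and AGR3 (-1.40 and -3.86) are below 0 in SUM44 LTED-A and LTED-B.

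Counted over the 5 genes, all 5 were beyond 1.5-fold without overlap of the libraries in each MM134 variant, all of them higher. This rule was met by 27.4% of the genes tested in MM134 LTED-A, 22.6% in LTED-B, 25% in LTED-D and 26.1% in LTED-E. In SUM44 LTED-A all 5 met it, 3 higher (TFF1, TFF3 and AGR2) and 2 lower (TFF2 and AGR3), and in SUM44 LTED-B 4 met it, 2 higher and 2 lower, beside 29.3% and 33.2% of the genes tested. In SUM44PE against SUM44F, 2 members met it (TFF1 and TFF3), beside 13.8% of the genes tested. TFF2 and AGR3, below detection in MM134 parental cells, passed the filter on low counts in MM134 only through the variants. For these genes no lower level could have been seen in MM134. Since the genes were also selected on these values, nothing is read from the counts. Leaving out SUM44F replicate 1 changed none of the SUM44 directions beyond 1.5-fold: for the SUM44 variants A and B, log2 fold changes became 4.54 and 4.47 for TFF1, -1.05 and -1.66 for TFF2, 2.01 and 0.05 for TFF3, 2.01 and 1.80 for AGR2, and -1.38 and -3.84 for AGR3.

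In SUM44PE, which separates the original culture from the cells kept in the other medium, TFF1 and TFF3 were higher than in SUM44F. TFF1 had a log2 fold change of 2.48 ± 0.122 (5.56-fold) and TFF3 one of 0.98 ± 0.0930 (1.97-fold). For TFF2 the log2 fold change was 0.39 ± 0.212, under 1.5-fold, and whether its libraries overlapped depended on the scaling, since they did by 0.841 against 0.848 CPM with factors over all samples and did not with factors within the SUM44 groups. Without SUM44F replicate 1 the values in SUM44PE were 2.53 for TFF1, 1.05 for TFF3, 0.36 for TFF2, 0.45 for AGR2 and -0.44 for AGR3. The difference between the 2 cultures labelled parental was thus smaller for TFF1 than that of either LTED variant from SUM44F, and for TFF3 it lay between those of the 2 variants.

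Per kilobase of exon, the genes can be set beside each other within a group. The length used is the union of all annotated exons, and the transcripts present in these cells were not determined. The order of genes with near values may therefore depend on this length. In MM134 parental cells TFF3 led with 115 CPM per kb, before TFF1 with 8.65 and AGR2 with 1.14 CPM per kb. TFF3 also led in MM134 LTED-A (2704), LTED-B (2534) and LTED-E (3094 CPM per kb), with TFF1 next at 1214, 1165 and 2108 CPM per kb. Only LTED-D had TFF1 first, at 5016 CPM per kb against 1979 for TFF3. In SUM44F, AGR2 (106 CPM per kb) and TFF3 (102) stood side by side and TFF1 followed with 30.1 CPM per kb. In SUM44 LTED-A and LTED-B, TFF1 led with 705 and 663 CPM per kb, ahead of AGR2 with 447 and 382 CPM per kb and TFF3 with 409 and 104 CPM per kb. In SUM44PE the 3 genes were nearer to each other, at 196 CPM per kb for TFF3, 164 for TFF1 and 141 for AGR2. AGR3 was below AGR2 per length in all groups, and TFF2 was at most 1.40 CPM per kb.

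**Figure D3:**
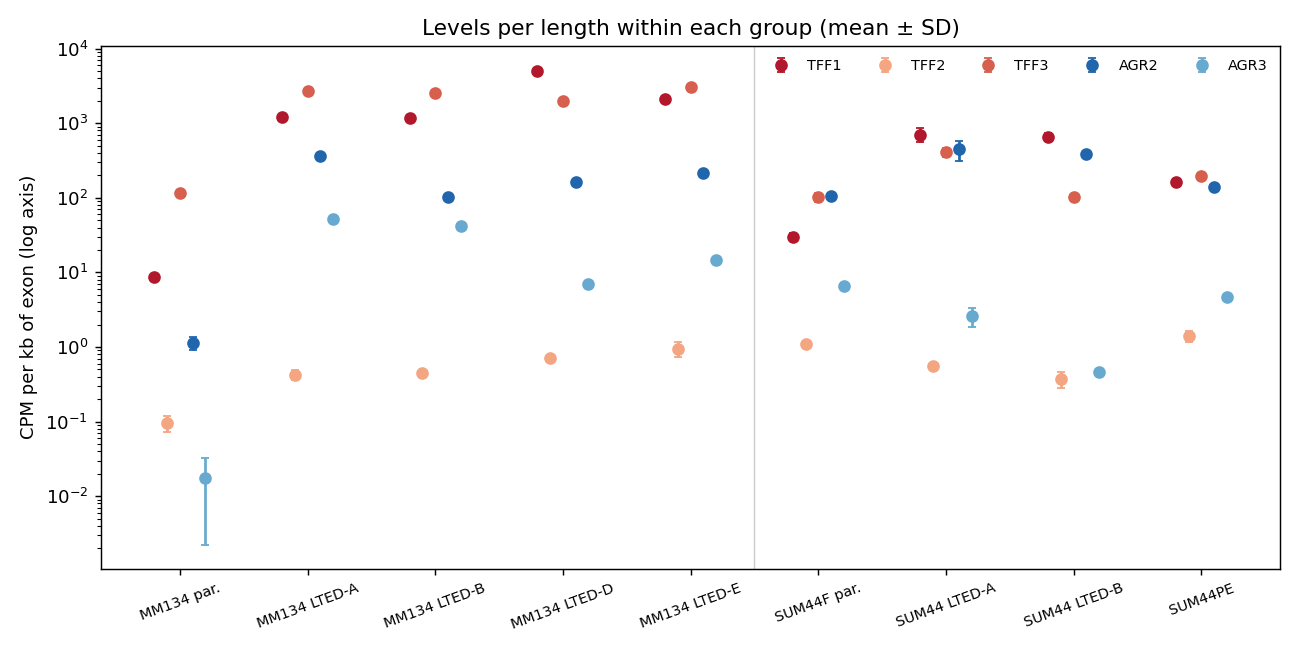
Mean level per kilobase of exon (CPM per kb, log axis) of the 5 genes in each group, with bars for ± SD over samples. TFF3 is first in 4 of the 5 MM134 groups, TFF1 in MM134 LTED-D (5016 CPM per kb) and in both SUM44 LTED variants (705 and 663 CPM per kb).

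As a share of all counts, the 5 genes together made up 0.0114% to 0.0133% of MM134 parental libraries. In the MM134 variants the share lay between 0.396% and 0.405% for LTED-A, between 0.310% and 0.312% for LTED-B, between 0.443% and 0.454% for LTED-D and between 0.432% and 0.453% for LTED-E. LTED-B stood below the other variants, and no variant reached down to the parental range. In SUM44 SUM44F lay between 0.0440% and 0.0470%, LTED-A between 0.169% and 0.198%, LTED-B between 0.136% and 0.142% and SUM44PE between 0.0669% and 0.0722%.

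Within a sample, the ratio of 2 members does not depend on library size. The ratio of TFF1 to TFF3 per length was 0.0756 in MM134 parental cells, 0.449 in LTED-A, 0.460 in LTED-B, 2.53 in LTED-D and 0.681 in LTED-E. In SUM44 it was 0.297 in SUM44F, 1.71 in LTED-A, 6.37 in LTED-B and 0.834 in SUM44PE. TFF1 therefore gained on TFF3 in every LTED variant, and by these exon lengths passed it in MM134 LTED-D and both SUM44 variants. The ratio of AGR2 to AGR3 per length was 7.13 in MM134 LTED-A, 2.47 in LTED-B, 23.7 in LTED-D and 14.5 in LTED-E. It was 16.1 in SUM44F, 30.3 in SUM44PE, 173 in SUM44 LTED-A and 816 in SUM44 LTED-B, with the samples of the last at 782 to 867. The AGR genes thus stood nearest to each other in MM134 LTED-B and farthest apart in SUM44 LTED-B. TFF3 was 103 times AGR2 per length in MM134 parental cells and 7.37 to 24.5 times in the MM134 variants, against 0.272 to 1.39 times in the SUM44 groups.

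**Figure D4:**
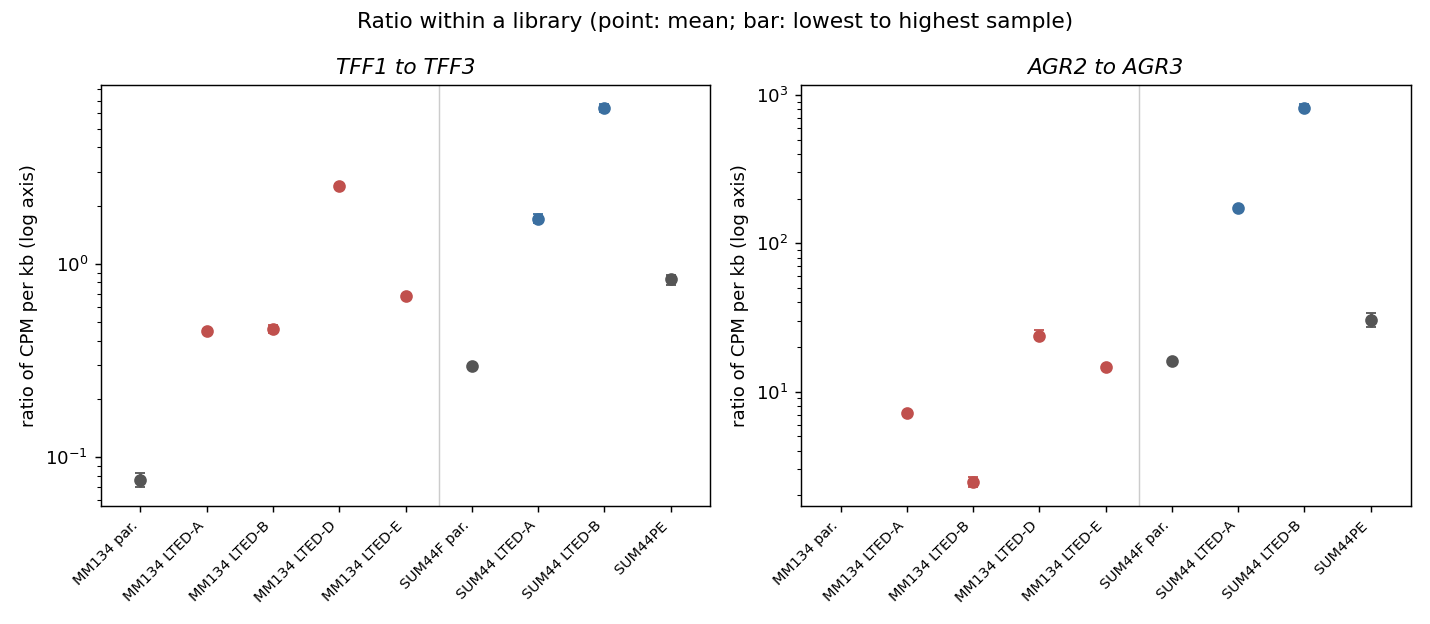
Ratios per kilobase of exon of TFF1 to TFF3 and of AGR2 to AGR3 within samples, on a log axis; points are group means and bars run from the lowest to the highest sample, and no AGR2 to AGR3 ratio is drawn for MM134 parental cells, where AGR3 is below detection. The ratio of TFF1 to TFF3 is above 1 in MM134 LTED-D (2.53) and in SUM44 LTED-A and LTED-B (1.71 and 6.37), and that of AGR2 to AGR3 reaches 816 in SUM44 LTED-B.

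Genes tied to these families were described with 5 lists of 91 genes, which were also written with earlier results of these data known. A gene was called when its fold change exceeded 1.5 and its adjusted p was under 0.001 (edgeR's quasi-likelihood test, Benjamini-Hochberg adjustment over all genes). Of the list genes tested, 44 of 71 were called in MM134 LTED-A, 40 in LTED-B, 38 in LTED-D and 36 in LTED-E, where 20.3%, 15.9%, 17.6% and 19% of all genes were called. In SUM44, 33 of 72 were called in LTED-A and 36 in LTED-B, beside 13.7% and 17.3% of all genes, and 20 of 76 in SUM44PE, beside 5.57%. Of all genes, 2741, 2114, 2510 and 2271 were called up and 2558, 2021, 2071 and 2676 down in MM134 variants A, B, D and E. In SUM44 LTED-A and LTED-B 1715 and 2333 were called up and 1954 and 2299 down, and in SUM44PE 782 up and 748 down. The mean change of the MM134 variants differed from that of the SUM44 variants for 38 of 75 list genes, beside 20.9% of all genes. Without MM134 parental replicate 3 the MM134 counts were 45, 39, 40 and 37, and without LTED-D replicate 2 they were 43, 40, 37 and 36. Without SUM44F replicate 1 the counts were 30, 34, 19 and 39 for SUM44 LTED-A, LTED-B, SUM44PE and the difference between lines.

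The regulators list holds 12 transcription factors known for roles in estrogen response or in secretory cells, and members went both ways. Called genes numbered 4 up and 4 down of 11 tested in MM134 LTED-A, 4 and 2 in LTED-B, 2 and 2 in LTED-D and 2 and 3 in LTED-E. Of 10 tested in SUM44, 5 were up and 1 down in LTED-A, and 4 up and 2 down in LTED-B. XBP1, which drives secretory pathway genes, rose in every LTED contrast, from a mean of 1271 CPM in MM134 parental cells to between 2467 and 3121 CPM in the variants (log2 fold change 0.93 to 1.27), and from 299.7 CPM in SUM44F to 1262 CPM in LTED-A (2.01, adjusted p = 2.78e-07) and 661 CPM in LTED-B (1.10, adjusted p = 8.70e-06, edgeR). It was also higher in SUM44PE (709.7 CPM, log2 fold change 1.27). ESR1, the gene of the estrogen receptor, fell in MM134 LTED-A, from 357 to 151 CPM (log2 fold change -1.27, adjusted p = 3.37e-17). It was higher in LTED-B (0.57) and LTED-D (0.38) and lower in LTED-E (-0.44), without overlap with the parental libraries. These 3 changes were under 1.5-fold and so not called (adjusted p = 5.76e-12, 1.98e-09 and 1.87e-10, edgeR). LTED-B would be called without LTED-B replicate 1 or parental replicate 1 (log2 fold change 0.59). In SUM44 it rose from 561 to 1434 CPM in LTED-A (1.30, adjusted p = 4.97e-06) and 1372 CPM in LTED-B (1.25, adjusted p = 2.79e-06).

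SPDEF, a transcription factor of goblet and luminal cells, rose in MM134 LTED-A (log2 fold change 0.79) and LTED-B (0.59) and in SUM44 LTED-A (0.91, adjusted p = 5.21e-05, edgeR), and had 0.48, 0.44 and 0.27 in MM134 LTED-D, LTED-E and SUM44 LTED-B without a call. Its call in MM134 LTED-B was lost without LTED-B replicate 1 or 2 or parental replicate 1 (log2 fold change 0.57 to 0.58). GATA3, a luminal transcription factor, fell in MM134 LTED-A (-0.65, adjusted p = 1.38e-06) and LTED-E (-1.01, adjusted p = 4.73e-09), and rose in SUM44 LTED-A (1.08, adjusted p = 0.000389) and LTED-B (0.85, adjusted p = 0.000795). The call in SUM44 LTED-A was lost without SUM44F replicate 1 or 3 or any LTED-B replicate (adjusted p 0.00107 to 0.00148), and that in LTED-B without any SUM44F or LTED-B replicate (0.00140 to 0.00429). FOXA1, a pioneer factor for the estrogen receptor, was called in SUM44 LTED-A alone (0.67, adjusted p = 0.000509), and leaving out any of the libraries but SUM44F replicate 3 lost the call (adjusted p 0.00104 to 0.00219). Its log2 fold changes in MM134 variants A, B, D and E were -0.05, 0.11, 0.47 and 0.43.

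Of the protein disulfide isomerases and their partners in the endoplasmic reticulum, to whose family the AGR proteins belong, more were called up than down in MM134. Of 20 tested, 7, 7, 8 and 10 rose and 2, 2, 1 and 2 fell in variants A, B, D and E, with median log2 fold changes of 0.51, 0.34, 0.45 and 0.57, where all genes had medians of -0.01, 0.02, -0.03 and 0.02. In SUM44, 3 rose and 3 fell in LTED-A (of 19) and 6 rose and 2 fell in LTED-B, with medians of 0.18 and 0.45 against -0.06 and -0.09. In SUM44PE none rose and 1 fell of 20. ERP27, a family member without redox activity, had the directions of AGR3. It rose from 0.679 CPM in MM134 parental cells to 5.11, 4.18, 2.47 and 3.48 CPM (log2 fold changes 2.85, 2.57, 1.81 and 2.30) and fell from 12.2 CPM in SUM44F to 4.2 CPM in LTED-A (-1.60, adjusted p = 1.42e-05, edgeR) and 2.89 CPM in LTED-B (-2.12, adjusted p = 6.13e-07). TXNDC5 rose in all MM134 variants (1.22, 0.81, 0.84 and 1.17) and in SUM44 LTED-B (0.88, adjusted p = 3.41e-05). PDIA5 also rose in all MM134 variants (1.47, 0.84, 0.87 and 1.72). In SUM44 LTED-A PDIA5 was called at 0.83 (adjusted p = 0.000482) and lost the call without any one library but SUM44F replicate 1 (adjusted p 0.00141 to 0.00652). In SUM44 LTED-B it was not called (0.63) and gained a call without SUM44F replicate 1 (0.75).

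Mucins and other products of goblet and mammary secretory cells, which are secreted along with trefoil factors, went up more often than down in MM134 and down more often than up in SUM44. Of 15 tested in MM134, 8, 7, 7 and 5 rose and 1, 1, 2 and 1 fell in variants A, B, D and E. Of 18 tested in SUM44, none rose and 9 fell in LTED-A, and 1 rose and 7 fell in LTED-B. The list holds 27 genes, and the others had too few counts to be tested. A gene near 0 in the parental cells, as SCGB2A1 and SCGB2A2 were in MM134, was tested only because a variant held more of it. For such genes the direction was set by the filter on low counts. The same holds in SUM44 for any gene near 0 in the variants, which passed the filter only through SUM44F. The list was also written with earlier results known, so nothing is read from these directions. Median log2 fold changes were 1.44, 0.62, 0.61 and 0.73 in MM134 and -1.84 and -1.48 in SUM44. All genes had medians of -0.01, 0.02, -0.03 and 0.02 in MM134 and -0.06 and -0.09 in SUM44. Of all genes, 20.3%, 15.9%, 17.6% and 19% were called in the MM134 variants and 13.7% and 17.3% in the SUM44 variants. In SUM44PE 4 rose and 3 fell of 20, beside 5.57% of all genes called. The difference between the lines was called for 12 of 19, with 11 more positive in MM134, beside 20.9% of all genes called in either direction. SCGB2A2, which encodes mammaglobin A, rose from 2 to 6 counts per library in MM134 parental cells to 24.1, 29.0, 1.84 and 1.24 CPM, and fell from 196 CPM in SUM44F to 2.55 CPM in LTED-A (log2 fold change -6.28, adjusted p = 1.73e-09, edgeR) and 1.67 CPM in LTED-B (-6.92, adjusted p = 1.81e-10), with 890.4 CPM in SUM44PE. SCGB2A1, mammaglobin B, was below detection in MM134 parental cells and at least 33.0-, 22.0-, 10.4- and 13.4-fold higher in the variants, and it fell in SUM44 LTED-A (-2.69) and LTED-B (-1.66). Its rise in SUM44PE (1.09) lost the call without SUM44PE replicate 2 (adjusted p = 0.00106). FCGBP, a mucus protein that binds IgG, rose from 1.21 CPM to 139, 44.3, 14.4 and 32.2 CPM in the MM134 variants (6.81, 5.17, 3.54 and 4.70). In SUM44 its changes were not called (-1.67, adjusted p = 0.00276, and -1.56, adjusted p = 0.00142). The 6 markers of stomach and gut without TFF2 summed to 3.72 to 4.31 CPM in MM134 parental cells. In the MM134 variants they summed to 5.98 to 13.8 CPM, and in SUM44 to 1.58 to 2.78 CPM. CDX2 and GKN1 were at 0 in all MM134 groups. LYZ, also an immune marker, rose from 0.271 CPM in MM134 parental cells to 9.80, 1.79, 0.723 and 2.19 CPM in the variants. Its call in LTED-D was lost without LTED-D replicate 1 or 2 or parental replicate 1 or 2. In LTED-D the sum was 12.0 to 13.1 CPM, so most of it came from other markers of the list. The part of these markers in the results was not tested.

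Of 11 proposed receptors and partners of the 5 proteins, only 5 had enough counts to be tested in MM134 and in the SUM44 LTED contrasts. CXCR4 and ACKR3 are chemokine receptors through which TFF2 or TFF3 have been proposed to act. CXCR4 fell in MM134 LTED-A, LTED-B and LTED-D, from 76.0 CPM to 4.48, 1.07 and 0.368 CPM (log2 fold changes -4.12, -6.18 and -7.70), was not called in LTED-E (63.2 CPM, -0.30), and rose in SUM44 from 9.35 CPM to 40.7 and 35.9 CPM (2.07, adjusted p = 3.69e-07, and 1.90, adjusted p = 2.92e-07, edgeR). ACKR3 fell in all 6 variants, from 15.4 to between 0.527 and 8.09 CPM in MM134 and from 55.1 to 18.1 and 4.76 CPM in SUM44. LYPD3, a proposed receptor of AGR2, rose in MM134 LTED-A, LTED-B and LTED-D (1.08, 0.77 and 0.79) and was not called in LTED-E (0.26) or in the SUM44 variants (0.63 and 0.45).

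Other estrogen-induced genes were counted beside TFF1, which is one of the best known of this class. Of 20 tested, 4, 6, 5 and 3 rose and 11, 8, 8 and 9 fell in MM134 variants A, B, D and E, with median log2 fold changes of -0.74, -0.49, -0.34 and -0.66. In SUM44, 7 rose and 2 fell in LTED-A, and 9 rose and 2 fell in LTED-B, with medians of 0.38 and 0.42, and in SUM44PE 9 rose and 0 fell (median 0.62). All genes had medians of -0.01, 0.02, -0.03 and 0.02 in the MM134 variants. Among all genes, more were called up than down in LTED-A, LTED-B and LTED-D, and more down than up in LTED-E (2271 up and 2676 down). In each MM134 variant more genes of this list were called down than up, while TFF1 was higher. The list was written with earlier results known, so nothing is read from this contrast. BCL2, an inhibitor of apoptosis, fell from 90.9 CPM to 4.93, 8.96, 16.2 and 1.51 CPM in MM134 (log2 fold changes -4.24, -3.37, -2.52 and -5.95) and was not called in SUM44 (-0.06 and -0.42). SERPINA3, a secreted protease inhibitor, rose in MM134 LTED-A, LTED-B and LTED-D (1.55, 2.47 and 3.03), in SUM44 LTED-B (3.65) and in SUM44PE (2.42), and was not called in SUM44 LTED-A (0.36). In MM134 LTED-E it had -0.68 without a call, and it was called lower without LTED-E replicate 3 (-0.95). AREG, which encodes the growth factor amphiregulin, fell in all MM134 variants (-1.59, -1.97, -2.11 and -1.61) and in SUM44 LTED-B (-1.57, adjusted p = 0.000481, edgeR), was not called in SUM44 LTED-A (-1.48), and rose in SUM44PE (1.94). The call in SUM44 LTED-B was lost without SUM44F replicate 2 or 3 or any LTED-B replicate (adjusted p 0.00101 to 0.00450).

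**Figure D5:**
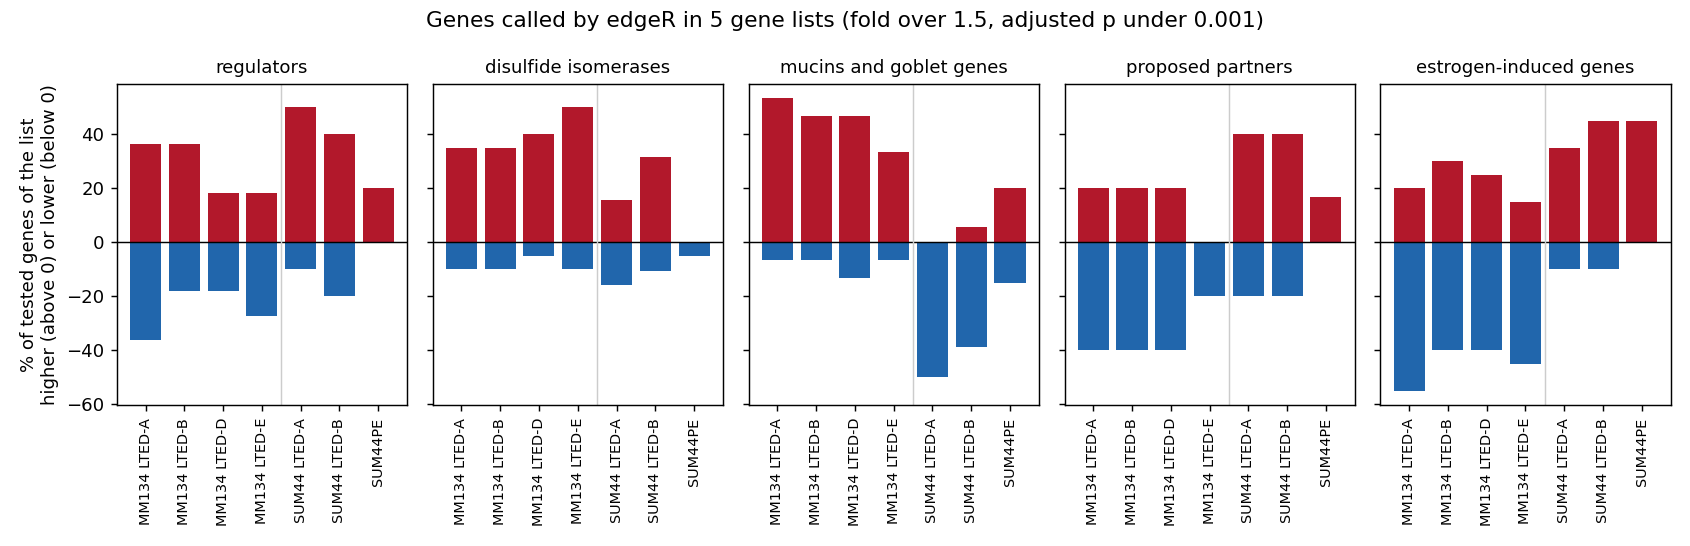
Percentage of the tested genes of each list that were called higher (above 0) or lower (below 0) in each contrast, with 1 panel for each of the 5 lists and 1 pair of bars for each of the 7 contrasts. In the mucin list 8 of 15 genes are higher in MM134 LTED-A and 9 of 18 lower in SUM44 LTED-A, and among estrogen-induced genes 11 of 20 are lower in MM134 LTED-A and 9 of 20 higher in SUM44 LTED-B.

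Genes next to the 2 clusters did not share one pattern. Beside the trefoil cluster, the nearest tested protein-coding genes were ABCG1, a cholesterol exporter 14423 bp from TFF3, and TMPRSS3, a membrane serine protease 5352 bp from TFF1. ABCG1 was called in no contrast, with log2 fold changes from -0.37 to 0.07. TMPRSS3 was not called in MM134 LTED-B, LTED-D and LTED-E and fell in LTED-A (-0.68, adjusted p = 0.000165, edgeR), a call that was lost without LTED-A replicate 1 or parental replicate 3 (adjusted p 0.00148 to 0.00157). In SUM44, TMPRSS3 fell from 34.4 CPM in SUM44F to 6.00 CPM in LTED-A (-2.58, adjusted p = 9.31e-08) and 9.37 CPM in LTED-B (-1.92, adjusted p = 1.41e-07), in the libraries in which TFF1 was higher, and was higher in SUM44PE (0.83). Within 1000000 bp of the trefoil cluster, 4, 4, 6 and 2 genes rose and 4, 2, 0 and 3 fell of 27 tested in MM134 variants A, B, D and E, and 3 and 6 rose and 3 and 3 fell of 26 in SUM44 LTED-A and LTED-B. These counts, 5 to 8 of 27 and 6 and 9 of 26, stand beside the 20.3%, 15.9%, 17.6% and 19% of all genes called in MM134 and the 13.7% and 17.3% in SUM44. Without LTED-A replicate 1, the count called in MM134 LTED-A was 5 in place of 8.

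Beside the AGR pair, TSPAN13, a tetraspanin 7275 bp from AGR2, rose in all 6 variants. AHR, the aryl hydrocarbon receptor 34372 bp from AGR3, had the directions of AGR3, with far smaller changes in MM134 and no call in LTED-D. TSPAN13 went from 175 CPM in MM134 parental cells to 472, 448, 542 and 587 CPM (log2 fold changes 1.40, 1.33, 1.60 and 1.72) and from 304 CPM in SUM44F to 572 and 512 CPM (0.85, adjusted p = 0.000116, and 0.71, adjusted p = 0.000163, edgeR). Its call in SUM44 LTED-A was lost without SUM44F replicate 2 (adjusted p = 0.00109), and that in LTED-B without SUM44F replicate 2 or any LTED-B replicate (0.00140 to 0.00171). AHR rose from 73.0 CPM to 245 CPM in MM134 LTED-A (1.72), 137 CPM in LTED-B (0.88) and 190 CPM in LTED-E (1.35), with 101 CPM in LTED-D (0.44, not called), and fell from 83.7 CPM in SUM44F to 47.1 CPM in LTED-A (-0.89, adjusted p = 1.02e-05) and 28.9 CPM in LTED-B (-1.57, adjusted p = 5.36e-08). Within 1000000 bp of the AGR pair, 6, 6, 7 and 7 of 12 genes tested rose and 0 fell in MM134 variants A, B, D and E, with median log2 fold changes of 0.97, 0.79, 1.42 and 1.24, beside the 20.3%, 15.9%, 17.6% and 19% of all genes called in either direction. With at least 10 counts in every sample, which left 6 of these genes, 4, 4, 4 and 5 were called, and by DESeq2 5 of 12 in LTED-D. In SUM44 LTED-A and LTED-B 1 rose and 1 fell of 10, with medians of -0.29 and -0.26, and without SUM44F replicate 2 or without any LTED-B replicate in turn only 1 was called in LTED-B, as was in LTED-A without SUM44F replicate 2.

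For each member, the genes whose pattern over the 9 group means was most like its own were taken from 12186 protein-coding genes with at least 5 CPM in a group, by Pearson's r on log2(CPM + 1). The 9 points share parental libraries and cell lines, and the values are descriptions. Most like TFF1 were GRIP1 (r = 0.969), a PDZ scaffold protein that went from 8.29 CPM in MM134 parental cells to between 21.1 and 26.3 CPM in the variants, RAB3IP (0.968) and DIAPH1 (0.950). Most like TFF3 were MLPH (0.988), which encodes melanophilin, ADCY2 (0.984), an adenylate cyclase, and GALNT11 (0.979), an enzyme of O-glycosylation. ADCY2 went from 1.47 CPM to between 38.2 and 51.9 CPM in the MM134 variants and from 1.83 to 6.59 and 3.10 CPM in the SUM44 variants. For AGR2 they were SOX9 (0.990), a transcription factor of epithelial progenitors, MTUS1 (0.982) and KIF1C (0.979). SOX9 had 1.80 CPM in MM134 parental cells, 15.4 to 20.3 CPM in the variants, 13.7 CPM in SUM44F and 29.4 and 24.9 CPM in SUM44 LTED-A and LTED-B. For AGR3 they were ZNF675 (0.985), SLC35F5 (0.965) and AMACR (0.939). Some of these genes moved far less than the member they resembled, as ZNF675 did, whose group means lay between 26.9 and 35.9 CPM. TFF2 was under 5 CPM in every group and was not searched.

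Among the members themselves, r over the 9 group means was 0.810 between TFF3 and AGR3, 0.787 between TFF1 and TFF3, and 0.725 between TFF1 and AGR2. It was 0.537 between TFF1 and AGR3, 0.448 between AGR2 and AGR3 and 0.356 between TFF3 and AGR2. TFF2 had values between 0.0105 and 0.431 with the other members. The value for the neighbours AGR2 and AGR3 was thus below that for TFF3 and AGR3, which lie on different chromosomes, and these differences were not tested.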

How the data were processed

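Per the labels and the study's methods, the authors made libraries with the TruSeq Stranded Total RNA kit and obtained estimated counts of each gene by Salmon 0.6.0, with hg38 and the transcripts of Ensembl release 82. Neither trimming nor a strand setting is given in the sources used here. The deposited values are estimated counts of 60619 genes that were not scaled for depth or length, and were rounded to whole numbers here. Symbols and positions came from GENCODE v44 by Ensembl ID (56434 genes matched, and 4185 had no match). All 5 members and all list genes matched.

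Low counts were removed with filterByExpr, TMM factors were applied, and the genes were fitted in R 4.3.3 with the two-sided quasi-likelihood test of edgeR 4.0.16, with p-values adjusted by Benjamini-Hochberg. One fit held the MM134 groups (26061 genes), one SUM44F and the SUM44 variants (26834), one added SUM44PE (27457) and one held both lines (29200) for the difference between the mean log2 fold changes of the MM134 and SUM44 variants. Calls needed a fold change above 1.5 and an adjusted p under 0.001, as in the study, which used DESeq2. Levels are CPM with TMM factors over all 26 samples, and levels per kb use the union of exons. A group with at most 3 counts in every library was below detection, and its bounds used 3 counts per library. P-values measure the spread between wells of 1 culture only.

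The members and gene lists were chosen with earlier results of these data known. Beside the members, the text names 5 regulators, the 3 genes most like each member, and the nearest tested protein-coding genes. From each list other than the regulators it names the 3 genes with the largest absolute mean log2 fold change over the LTED contrasts. These were taken among the genes called in at least 2 LTED contrasts. COL3A1, PTPRC, CD3E, CDX2 and GKN1 among the markers, and ZNF675, SOX9, ADCY2 and GRIP1 as examples with levels, were picked after their values were seen. Samples with the same replicate number were no more alike across groups than samples with different numbers. In MM134, r of their deviations was -0.498 to 0.366 (median -0.029) against -0.512 to 0.554 (median 0.0011). In SUM44 it was -0.207 to 0.341 (median -0.057) against -0.372 to 0.356 (median 0.041). With n = 2, the deviations of SUM44 LTED-A are mirror images of each other. Pairing under other numbers was not tested. The procedure was also run on simulated data in which 200 genes were changed. The outcome is not given here, and no result rests on it. Alternatives were DESeq2 1.42.0, RLE size factors, no filter, at least 10 counts in every sample, a fold minimum of 2, an adjusted p under 0.05, a replicate block, each library left out, and, added after seeing the data, the replicates of SUM44 LTED-A kept separate. Tables were made with pandas 2.3.3, numpy 2.4.6 and scipy 1.17.1 in Python 3.11.15, and figures with matplotlib 3.10.9.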

Additional observations from a re-analysis of the deposited data

Results flagged for a closer look

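For 2 members, every MM134 LTED library lay above the MM134 parental libraries and every SUM44 LTED library below SUM44F. TFF2 had a log2 fold change of -1.0 in SUM44 LTED-A and AGR3 one of -1.40, while both were at least 3.45-fold higher in each MM134 variant. Both were below detection in MM134 parental cells, so a lower level could not have been seen there. This difference between the cell lines was not tested.

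For other named genes the MM134 and SUM44 variants differed in their mean log2 fold changes by edgeR's test of the difference (fold above 1.5, adjusted p under 0.001). The test averages the variants of a line, and its error is the spread between wells, not between variants. The value given is MM134 minus SUM44. Among regulators it was -1.47 for ESR1 and -1.34 for GATA3. Among pathway genes it was 4.24 for ERP27, 6.69 for FCGBP, 12.56 for SCGB2A2, -6.58 for CXCR4 and -3.79 for BCL2. CXCR4 was not called in MM134 LTED-E (log2 fold change -0.30), so its mean does not describe that variant. For SCGB2A1 the difference was 8.29, a value that depends on the prior count because the gene was below detection in MM134 parental cells. The SCGB2A2 value likewise rests on a level near 0, with 2 to 6 counts per library in MM134 parental cells.

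Beside the clusters the difference was 2.03 for TMPRSS3, 0.73 for TSPAN13 and 2.32 for AHR. Luminal keratins had 1.53 (KRT8) and 0.69 (KRT19). Among markers of other cell types it was 2.15 for TP63, 1.14 for ACTA2, 2.50 for MYLK, 5.41 for CD68, 3.49 for LYZ, 2.59 for VWF and 4.46 for PECAM1. The call for ACTA2 was lost without any one of the MM134 parental replicates or SUM44F replicate 1 (1.02 to 1.17, adjusted p 0.00105 to 0.00215 in edgeR).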

How the results depend on the processing

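With one library left out, 400 fold changes of the 5 members stayed within the spread between replicates and 35 moved beyond it, and under the other alternatives 186 stayed and 8 moved. All that moved concerned TFF2 and AGR3. No member reversed, and TFF3 in SUM44 LTED-B lay on either side of 0 (-0.12 to 0.05). AGR2 in SUM44 LTED-A ranged from 1.75 to 2.26. The number of members beyond 1.5-fold without overlap was 3 in each of the MM134 variants when at least 10 counts were required in every sample, since TFF2 and AGR3 were then not tested, and 1 in SUM44PE with a fold minimum of 2. It ranged from 5 to 5 in each MM134 variant and SUM44 LTED-A, from 4 to 4 in SUM44 LTED-B and from 2 to 2 in SUM44PE when each library was left out. The list genes called were 25 in MM134 LTED-B and 25 in LTED-D with a fold minimum of 2 (from 40 and 38). Leaving out each library gave 43 to 45, 38 to 40, 37 to 40 and 36 to 37 in the MM134 variants A, B, D and E, 27 to 30 and 30 to 36 in SUM44 LTED-A and LTED-B, 15 to 22 in SUM44PE and 37 to 39 for the difference between lines. A variant left with 1 sample was assumed to vary like the other groups. Of the named genes, COL1A1 alone reversed, from a difference between lines of 1.46, not called, to -0.89, called, without SUM44F replicate 1, and the value ranged up to 1.99 without SUM44F replicate 3. Among the genes most like AGR3, 1 of 3 remained on the log2(CPM + 0.1) scale, and 3 of 3 for TFF1, TFF3 and AGR2. Replicate numbers, for which no pairing was seen, were also used as a block. The list counts were then 43, 40, 38 and 36 in MM134, 30 and 35 in SUM44, 18 in SUM44PE and 38 for the difference. The member counts were 5, 5, 5, 5, 5, 4 and 2. With the replicates of SUM44 LTED-A kept separate, the list counts were 37, 38, 20 and 39 for SUM44 LTED-A, LTED-B, SUM44PE and the difference. Depth limits TFF2 and AGR3 most, with at most 3 counts per library in MM134 parental cells, so that these changes are known only as lower bounds. Variants that share parental libraries are not independent, and 1 culture stands for each group.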
